A study of Mus musculus with 12 samples.

Results

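The comparison of lean mice, PPARγ2KO vs. WT islets, asked what loss of PPARγ2 changes in the islet before any leptin deficiency is added. Its members were chosen by genotype label alone and are 6 arrays, 3 from WT and 3 from PPARγ2KO mice, of 12 arrays in the series. WT mice carry PPARγ2 and leptin. PPARγ2KO mice lack PPARγ2 and are lean. The other 6 arrays are from ob/ob mice, which lack leptin, and from POKO mice, which lack both leptin and PPARγ2. All mice were female, on a mixed C57BL/6 and Sv129 background and fed chow, and the labels give an age of 4 weeks for every array, while the study's text gives a slightly later age. The PPARγ2 deletion is not confined to islets or to any cell type. Each array held a pool of islets from several mice, hand-picked after collagenase digestion and cultured overnight before RNA extraction, and an array was counted as 1 sample. Nothing in the sources says that the pools of 1 genotype shared no litter or day, so the p-values measure the spread between these pools.

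PPARγ is a nuclear receptor that binds DNA as a partner of RXR and turns on genes of fat storage and fatty acid handling. It is made in a pair of forms from separate start sites, and PPARγ2, the longer form, is found mainly in adipose tissue and appears in other tissues under nutritional load. In islets PPARγ is present at low level, and its role in beta cell growth has been studied in insulin-resistant animals.

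Values are log2 signals of single probes after quantile normalization. A probe was called changed at an absolute log2 difference of at least 1 and a Benjamini-Hochberg adjusted p of at most 0.2 in limma, the looser limit that the study used for these groups. "Well above background" is the scanner software's own flag for a spot. Between 54.3 and 57.5% of spots passed it on the WT arrays and between 57.1 and 60.9% on the PPARγ2KO arrays, and 0 spots were saturated. The arrays lay on 3 slides, 1 array of each genotype per slide, at a place on the slide that was fixed by genotype, so that place and genotype cannot be told apart. The label of the tissue was borne out by the hormone genes. Ins1 lay between 17.07 and 18.38 on the WT arrays and between 17.90 and 18.28 on the PPARγ2KO arrays, and Gcg between 17.38 and 17.70 on all 6. Enzymes of exocrine acinar cells were also present on all 6, with 21 of 21 acinar genes well above background and a list mean between 16.60 and 16.87, and the list means of the genotypes overlapped.

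Array 2 of PPARγ2KO was known beforehand, from these same data, to carry a high lymphoid signal, so the values below only describe it. Its correlation with the 3 WT arrays over bright probes was 0.949, 0.951 and 0.961, while array 1 of PPARγ2KO gave 0.978 to 0.979. The mean level of 16 B cell genes was 7.06 on this array, against 3.19 and 3.76 on PPARγ2KO arrays 1 and 3 and 3.34 to 3.54 on the WT arrays. The mean level of 20 T cell genes was 6.33, against 4.00 and 3.91 on the other PPARγ2KO arrays and 3.72 to 3.79 on the WT arrays. The counts of calls, the called genes and the lists described at length are therefore also given without PPARγ2KO array 2. In whole islets more lymphocytes and more RNA per lymphocyte cannot be told apart.

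Pparg itself was lower in PPARγ2KO islets. Its probe read 8.87, 8.98 and 8.85 on the WT arrays and 7.44, 7.27 and 6.60 on the PPARγ2KO arrays, so the genotypes did not overlap, and every PPARγ2KO array lay well below every WT array. The difference was -1.79 ± 0.35 (SE, log2), or 3.47-fold lower, with an adjusted p of 0.257 (limma over all probes), which misses the limit of 0.2. Leaving out PPARγ2KO array 2 gave -1.88, with an adjusted p of 0.298. Under normexp background correction the difference was -0.98, with an adjusted p of 0.412. The Pparg signal stayed well above background on all 3 PPARγ2KO arrays. The deletion concerns 1 form of the transcript, and whether the probe lies in a part common to both forms was not tested here. The probe was also lower in POKO than in ob/ob. It read 8.54, 9.77 and 9.61 in ob/ob and 6.41, 7.11 and 7.14 in POKO, a difference of -2.42 with an adjusted p of 0.23. The difference between both comparisons was -0.62, with an adjusted p of 0.585.

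None of the other receptors of this family or its partners was called. Of 18 receptor and cofactor genes, 0 were higher and 2 were lower at an unadjusted p under 0.05, the 2 being Pparg and Cebpa. Leaving out PPARγ2KO array 2 gave 0 higher and 1 lower, and the median was -0.03 in both fits. Ppara, the receptor that drives fatty acid oxidation, read 5.18, 5.11 and 4.49 in WT and 5.50, 4.64 and 4.52 in PPARγ2KO, a difference of -0.04. Ppard was not well above background on any of the 6 arrays. Cebpa, a partner of PPARγ in adipocyte differentiation and chosen here after its values were seen, read 8.45, 8.44 and 7.83 in WT and 8.13, 7.61 and 7.55 in PPARγ2KO, with overlapping genotypes and an adjusted p of 0.514.

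Over all 41174 probes, 40 were called, 28 higher and 12 lower in PPARγ2KO. This is 0.0971% of the probes tested, with 0.068% for the higher and 0.0291% for the lower direction. At an adjusted p of 0.05, limma called 0 probes, although 3856 probes, or 9.37%, had an unadjusted p under 0.05, and the smallest adjusted p was 0.0771. Most of them were dim. On none of the 6 arrays were 19 of the 40 probes well above background, and in 29 the dimmer genotype had no array above it, so that the size of these changes is not measured. Only 13 calls were bright on all arrays of the higher genotype, and 8 of those had a gene name.

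These 8 bright genes were Thrsp, Ppp1r14a, Snorc, Pik3c2g, Cd38 and Krtap31-1, higher in PPARγ2KO, and Anxa10 and Rab6b, lower in PPARγ2KO. In all 8 the 3 arrays of the genotypes did not overlap, which follows largely from calling them by fold and p on these same arrays. Among all 17305 named genes 4.87% did not overlap with PPARγ2KO higher and 6.48% with PPARγ2KO lower. Without PPARγ2KO array 2, 7 of the 8 were called again, with Krtap31-1 just under the fold limit at 0.96. With the slide as a block, the same as the replicate number, 0 of the 8 were called, with adjusted p between 0.216 and 0.351, and the calls over all probes fell from 40 to 17, with 15 shared. Under normexp background correction with an offset of 50, which shrinks folds of dim probes, 0 of the 8 and 0 of all probes were called. The differences of the 6 higher genes then lay between 0.22 and 0.43. Those of Anxa10 and of the called Rab6b probe were -1.19 and -0.95, each with an adjusted p of 0.228 (limma).

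**Figure D1:**
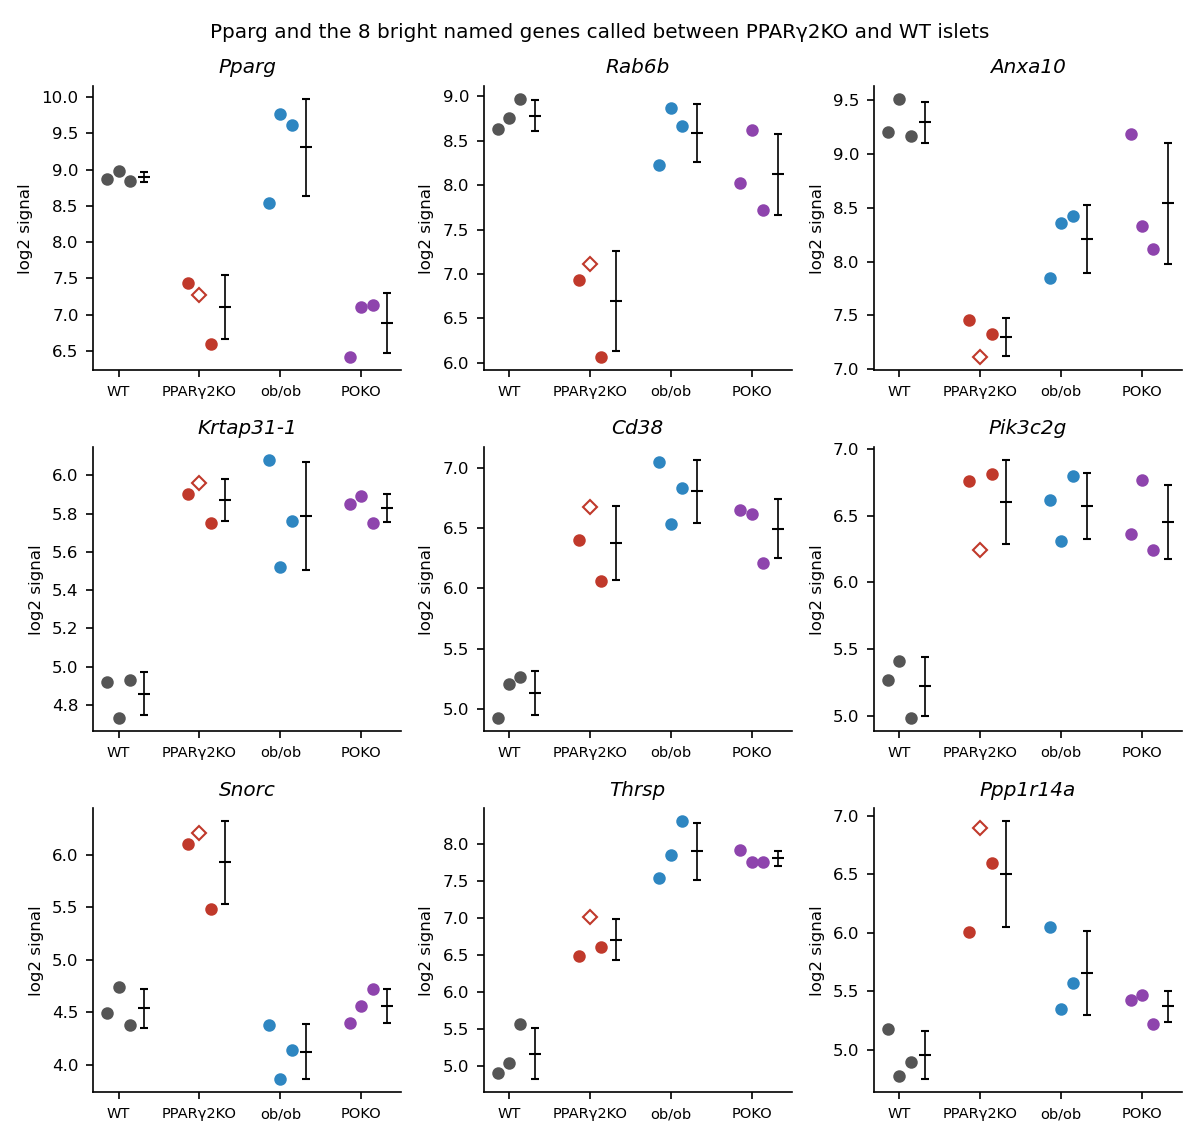
Log2 signal of Pparg and the 8 bright named genes called between PPARγ2KO and WT, on each of the 12 arrays. Points are arrays, the open diamond is PPARγ2KO array 2, and the bar beside each genotype is the mean ± SD of 3 arrays. The WT and PPARγ2KO points do not overlap in any panel, which for the 8 called genes follows largely from how they were called. Anxa10 falls from 9.29 to 7.30.

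Anxa10, a member of the annexin family, read 9.20, 9.51 and 9.17 in WT and 7.46, 7.11 and 7.33 in PPARγ2KO. The difference was -1.99 ± 0.27 (SE), 3.97-fold lower, with an adjusted p of 0.102 with all arrays and 0.144 without PPARγ2KO array 2. It was called in all 6 fits that left out 1 array, with differences between -2.07 and -1.88. In mice without leptin the genotypes overlapped. The gene read 7.85, 8.36 and 8.42 in ob/ob and 9.18, 8.33 and 8.12 in POKO, a difference of 0.33 with an adjusted p of 0.727.

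Rab6b, a small GTPase of Golgi traffic that is best known from neurons, was measured by a pair of probes that agreed in direction. The brighter probe read 8.63, 8.75 and 8.97 in WT and 6.93, 7.11 and 6.06 in PPARγ2KO, a difference of -2.09 ± 0.31 (SE) or 4.25-fold lower, adjusted p 0.128, and -2.29 with an adjusted p of 0.107 without PPARγ2KO array 2. The dimmer probe read 7.72, 7.65 and 7.32 in WT and 5.74, 5.44 and 3.78 in PPARγ2KO. Its difference of -2.58 had an adjusted p of 0.216 with all arrays and 0.184 without PPARγ2KO array 2. On both probes the lowest value was that of PPARγ2KO array 3. The POKO minus ob/ob difference was -0.47 on each probe, with adjusted p of 0.666 and 0.803.

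Thrsp, a thyroid hormone-responsive nuclear protein of fatty acid synthesis, read 4.91, 5.04 and 5.57 in WT and 6.49, 7.02 and 6.61 in PPARγ2KO. The difference was 1.53 ± 0.23 (SE), 2.89-fold higher, adjusted p 0.134. Without PPARγ2KO array 2 it was 1.38 with an adjusted p of 0.184. The gene was higher still in both groups of mice without leptin, where it averaged 7.90 in ob/ob and 7.81 in POKO. Other genes of fatty acid and triglyceride synthesis did not move with it. Of 18 such genes 0 were higher and 2 lower at an unadjusted p under 0.05, and Fasn, the fatty acid synthase, read 13.43, 13.18 and 12.90 in WT and 12.61, 12.28 and 12.55 in PPARγ2KO, a difference of -0.69 with an adjusted p of 0.483.

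Cd38, an ectoenzyme that consumes NAD and makes the calcium messenger cyclic ADP-ribose, read 4.92, 5.21 and 5.26 in WT and 6.40, 6.67 and 6.06 in PPARγ2KO. The difference was 1.25 ± 0.20 (SE), adjusted p 0.153, and 1.1 with an adjusted p of 0.199 without PPARγ2KO array 2. Cd38 is also made by lymphocytes, whose genes were high on PPARγ2KO array 2, the array with the highest of these values, and their part in the difference was not tested. A second, dimmer Cd38 probe had an adjusted p of 0.563 and was well above background on no WT array, so its difference is not measured. Pik3c2g, a class II phosphoinositide 3-kinase, read 5.27, 5.41 and 4.98 in WT and 6.76, 6.24 and 6.81 in PPARγ2KO. Its difference was 1.38 ± 0.21 (SE), adjusted p 0.134, and rose to 1.56 with an adjusted p of 0.0742 when PPARγ2KO array 2 was left out. A second Pik3c2g probe gave 0.74 with an adjusted p of 0.425.

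Ppp1r14a, an inhibitor of myosin light chain phosphatase in contractile cells, read 5.18, 4.78 and 4.90 in WT and 6.01, 6.90 and 6.60 in PPARγ2KO, a difference of 1.54 ± 0.24 (SE) with an adjusted p of 0.15, and 1.35 with an adjusted p of 0.184 without PPARγ2KO array 2. PPARγ2KO array 1 was the lowest of the 3 and still above every WT array. Snorc, a small proteoglycan of cartilage cells, read 4.49, 4.74 and 4.38 in WT and 6.10, 6.21 and 5.48 in PPARγ2KO. Its difference was 1.39 ± 0.21 (SE), adjusted p 0.128, and 1.25 with an adjusted p of 0.184 without PPARγ2KO array 2. Snorc was highest in PPARγ2KO among the 4 genotypes, with means of 4.13 in ob/ob and 4.56 in POKO beside 4.54 in WT. Krtap31-1, a keratin-associated protein, read 4.92, 4.73 and 4.93 in WT and 5.90, 5.96 and 5.75 in PPARγ2KO, a difference of 1.01 with an adjusted p of 0.102, and 0.96 with an adjusted p of 0.144 without PPARγ2KO array 2.

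The same 8 genes were set beside their POKO minus ob/ob difference, whose means come from other arrays and whose error is pooled over all 12. None passed an adjusted p of 0.2 there, and the differences ran from -0.47 for Rab6b to 0.43 for Snorc. Pik3c2g, Krtap31-1 and Cd38 averaged 5.22, 4.86 and 5.13 in WT and 6.60, 5.87 and 6.38 in PPARγ2KO. Their ob/ob means, from mice that carry PPARγ2, were 6.58, 5.79 and 6.80, and their POKO means 6.46, 5.83 and 6.49. On the called Rab6b probe the ob/ob and POKO means of 8.59 and 8.12 were nearer to WT, at 8.79. Those of Ppp1r14a, 5.66 and 5.37, lay between WT and PPARγ2KO. Among all 40 calls 13 had the same sign in POKO minus ob/ob, 7 of the 28 higher and 6 of the 12 lower. The same share over all probes was not computed, so this count is not read as a result. The difference between both comparisons contains the lean values by which the calls were made, so no test of it is read for these genes.

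For the dim calls the arrays give a direction, and no fold is given because WT or PPARγ2KO spots were not well above background. Pdcd1lg2, the PD-1 ligand PD-L2, read 1.00, 1.00 and 0.98 in WT and 2.80, 4.27 and 3.99 in PPARγ2KO, and was well above background on 2 of 3 PPARγ2KO arrays and on no WT array. Its adjusted p was 0.102 with all arrays and 0.123 without PPARγ2KO array 2. Dbx2, a homeobox gene, read 1.23, 1.28 and 1.25 in WT and 3.44, 3.91 and 3.17 in PPARγ2KO, and only 1 array was well above background, with an adjusted p of 0.102 with all arrays and 0.123 without PPARγ2KO array 2. In ob/ob and POKO the means were 3.50 and 3.70 for Pdcd1lg2 and 4.07 and 4.47 for Dbx2, beside 3.69 and 3.51 in PPARγ2KO. Both genes were chosen after their values were seen. Mgl2, a lectin of macrophages chosen likewise, read 3.03, 3.52 and 3.52 in WT and 1.36, 1.33 and 1.98 in PPARγ2KO, and was well above background on none of the 6 arrays. Its adjusted p was 0.102 with all arrays and 0.144 without PPARγ2KO array 2, and it averaged 1.48 in ob/ob and 2.88 in POKO. With the slide as a block none of the 3 was called, with adjusted p of 0.291, 0.291 and 0.227.

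Leaving out PPARγ2KO array 2 raised the number of calls from 40 to 100, 83 higher and 17 lower, or 0.243% of the probes, with 0.202% for the higher and 0.0413% for the lower direction. At an adjusted p of 0.05 the fit called 19 probes, or 0.0461%, with 0.0437% higher and 0.00243% lower, and 6.53% of probes had an unadjusted p under 0.05. Of the 40 calls 32 stayed called and all 40 kept their sign. Among the 68 new calls 53 had PPARγ2KO array 2 nearer to the WT mean than to the other PPARγ2KO arrays. The new calls are probes that missed the limits with that array, so its place toward WT follows largely from how they were chosen. In 57 of them neither that array nor any WT array was well above background. The count also moved when other arrays were left out. It was 911 without WT array 3 and 611 without PPARγ2KO array 3, which share a slide and correlated at 0.985, the highest of any pair among the 6. It was 72 without WT array 1, 54 without WT array 2 and 152 without PPARγ2KO array 1. Of the 40 calls 16 were kept in all 6 of these fits.

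The new named genes without PPARγ2KO array 2 that were well above background on all arrays of the brighter genotype were Vmn1r229, Pakap, Arid5b, Cxcl2 and Tnfrsf19. Vmn1r229, a vomeronasal receptor of a large family of near copies, read 1.12, 1.13 and 1.12 in WT and 5.50, 1.12 and 5.04 in PPARγ2KO. Its signal was present on 2 PPARγ2KO arrays and at the floor of the array on PPARγ2KO array 2 and on all ob/ob and POKO arrays. Without PPARγ2KO array 2 it had an adjusted p of 1.28e-05, which rests on the lack of spread at the floor, against 0.483 with all arrays. One of 5 Pakap probes had the same form, at 1.04, 1.07 and 1.03 in WT and 5, 1.03 and 4.49 in PPARγ2KO. The other 4 Pakap probes gave differences from -0.46 to 0.23 with all arrays. Of these, 3 are assigned to another transcript of the locus, and the other one was well above background on none of the 6 arrays.

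The 3 remaining genes were lower. Cxcl2, a neutrophil-attracting chemokine, read 5.6, 4.84 and 5.74 in WT and 3.41, 4.42 and 4.10 in PPARγ2KO. Its difference was -1.42 with an adjusted p of 0.29, and -1.64 with an adjusted p of 0.184 without PPARγ2KO array 2. Tnfrsf19, a receptor of the TNF family, read 6.44, 6.00 and 6.06 in WT and 5.22, 5.67 and 5.08 in PPARγ2KO, a difference of -0.85 that became -1.02 without that array. Arid5b was called without PPARγ2KO array 2 on 1 of 4 probes. That probe was well above background on all WT arrays and on no PPARγ2KO, ob/ob or POKO array, so the size of its change is not measured. The brightest Arid5b probe gave -0.73 with an adjusted p of 0.653 with all arrays, and -0.11 with an adjusted p of 0.995 without PPARγ2KO array 2.

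Gene lists were read by counts, since in the 18 pathway lists and 21 cell type lists 0 members passed the criteria with all arrays or without PPARγ2KO array 2. Among the 17305 named genes 4.55% were higher and 4.28% lower at an unadjusted p under 0.05, and their median difference was -0.02 on the log2 scale. Without PPARγ2KO array 2 these shares were 2.75% and 2.4%. Members named below beyond the first 3 of a list were chosen after their values were seen.

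Interferon-stimulated genes gave the highest share. These genes encode antiviral proteins that cells make after type I or type II interferon binds its receptor, and they are driven by the ISGF3 and IRF factors. Of 18 such genes, all well above background on all 6 arrays, 14 were higher and 0 lower in PPARγ2KO at an unadjusted p under 0.05, and the median difference was 0.92. Of the 18, 11 were higher without PPARγ2KO array 2 and the median was 0.93. The smallest adjusted p in the list was 0.429, so no single gene was called.

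Isg15, a ubiquitin-like modifier, read 8.98, 8.23 and 9.28 in WT and 9.39, 10.70 and 10.99 in PPARγ2KO, a difference of 1.53 ± 0.50 (SE) with an adjusted p of 0.482. Ifit1, which binds viral RNA, read 7.68, 7.58 and 8.18 in WT and 8.26, 8.93 and 9.32 in PPARγ2KO, a difference of 1.03. Irf7, the factor that amplifies the interferon response, read 8.23, 8.17 and 9.05 in WT and 9.15, 9.76 and 10.55 in PPARγ2KO, a difference of 1.33. In each the 3 PPARγ2KO arrays lay above the 3 WT arrays, with array 1 nearest to WT and array 3 farthest from it. The genotypes did not overlap in 11 of the 18 genes, with PPARγ2KO higher, against 4.87% of all named genes. Oas1a, an enzyme that activates RNase L, read 8.71, 8.41 and 9.34 in WT and 9.50, 9.72 and 10.06 in PPARγ2KO. Rsad2 was the exception with a difference of 0.00, at 10.59, 9.99 and 8.97 in WT and 9.69, 9.70 and 10.15 in PPARγ2KO.

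**Figure D2:**
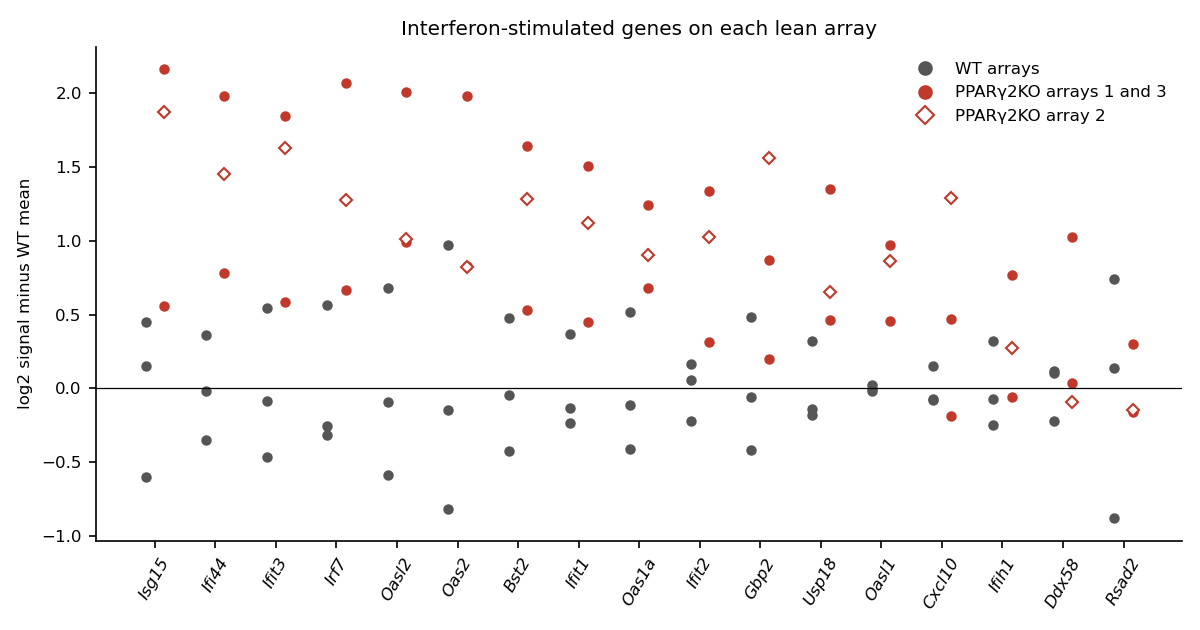
Log2 signal of 17 of the 18 interferon-stimulated genes minus the mean of the 3 WT arrays, on the 6 lean arrays; genes are ordered by their fitted difference, and 1 gene whose genotypes overlapped is not shown, for a reason unrelated to its values. The PPARγ2KO points lie above the WT points in 11 of the genes shown, and the open diamonds of PPARγ2KO array 2 lie between those of arrays 1 and 3 in most genes.

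The list mean was 8.56, 8.29 and 8.86 on the WT arrays and 8.98, 9.52 and 9.92 on the PPARγ2KO arrays. PPARγ2KO array 3 gave the highest of these values, and array 1 lay just above the highest WT array. The part of lymphocytes in these values was not tested. The count depended on single arrays, at 8 without WT array 2, 9 without WT array 1 and 9 without PPARγ2KO array 3. Of all named genes 2.57, 2.74 and 5.72% were higher in these fits, against 4.55% with all arrays. The median stayed between 0.65 and 1.20 in all settings tried. Endothelial genes moved over the same arrays, with a list mean of 8.75, 8.34 and 9.39 in WT and 9.07, 9.50 and 9.89 in PPARγ2KO, and their part in the interferon values was not tested. Both groups of mice without leptin were at the upper end of the range or above it, at 9.98 to 10.43 in ob/ob and 9.80 to 10.29 in POKO. Between POKO and ob/ob 0 of the 18 genes differed at an unadjusted p under 0.05, against 6.65% of all named genes higher and 5.18% lower, and the median difference was -0.17.

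The promoters of these genes show what the members share in sequence, which the array values did not use. The sequences are those of RefSeq on build GRCm38.p6, each a window of 300 bases that ends 50 bases after the start of transcription, and 15 of the 18 genes matched an entry. The letters GAAA, any 2 bases and GAAA again, read on either strand, are the core that interferon-driven factors bind and were found in 10 of these 15 genes, or 66.7%, against 3.99% of all 27025 genes with an entry. Of the 11 genes with an entry that were higher at an unadjusted p under 0.05, 6 held it, and so did all 4 that were not, namely Rsad2, Cxcl10, Ifih1 and Ddx58, so the match did not separate the genes that moved. The promoters of Isg15 (chr4:156200769-156201068, minus strand), Ifit1 (chr19:34640639-34640938, plus strand), Ifit3 (chr19:34583279-34583578, plus strand) and Bst2 (chr8:71537423-71537722, minus strand) are shown because these genes were higher by over 1 on the log2 scale and carry more than 1 match each. Capitals mark the matches, which overlap in Isg15 and Bst2 and read TTTC, 2 bases and TTTC where they lie on the other strand.
Isg15: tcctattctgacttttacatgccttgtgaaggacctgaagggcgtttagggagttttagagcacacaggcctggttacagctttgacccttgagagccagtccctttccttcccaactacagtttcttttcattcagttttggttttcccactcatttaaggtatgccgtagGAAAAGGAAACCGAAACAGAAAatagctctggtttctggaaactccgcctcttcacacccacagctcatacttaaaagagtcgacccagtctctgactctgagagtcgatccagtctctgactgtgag
Ifit1: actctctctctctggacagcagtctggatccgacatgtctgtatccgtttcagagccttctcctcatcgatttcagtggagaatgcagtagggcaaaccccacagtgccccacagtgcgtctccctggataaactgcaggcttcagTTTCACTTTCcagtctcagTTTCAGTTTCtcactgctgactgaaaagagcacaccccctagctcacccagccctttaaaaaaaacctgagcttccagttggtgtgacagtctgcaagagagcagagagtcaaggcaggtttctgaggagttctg
Ifit3: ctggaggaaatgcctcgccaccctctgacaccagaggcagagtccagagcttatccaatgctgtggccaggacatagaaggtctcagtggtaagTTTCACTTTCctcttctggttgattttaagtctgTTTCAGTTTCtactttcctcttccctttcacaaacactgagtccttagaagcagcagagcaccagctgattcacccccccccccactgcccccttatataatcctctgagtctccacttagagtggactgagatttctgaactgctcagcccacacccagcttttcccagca
Bst2: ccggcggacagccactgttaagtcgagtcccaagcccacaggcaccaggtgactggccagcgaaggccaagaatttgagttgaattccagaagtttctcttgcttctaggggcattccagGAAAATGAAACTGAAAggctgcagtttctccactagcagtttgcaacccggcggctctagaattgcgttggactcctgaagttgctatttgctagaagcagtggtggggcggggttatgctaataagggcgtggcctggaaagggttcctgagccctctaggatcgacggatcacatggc
The match nearest the start of transcription began 66 bases before it in Isg15, 85 in Ifit1, 122 in Ifit3 and 124 in Bst2. The site of a PPAR and RXR dimer, AGGTCA followed after any 1 base by AGGTCA, was searched in the same way on both strands and was found in 0.0481% of all genes and in none of the 7 bright called genes that had an entry. The single half-site AGGTCA, which lies within that motif, was in 18.1% of all genes and in none of these 7. This says only that these letters are not in these windows.

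Antigen presentation genes split into a part that rested on PPARγ2KO array 2 and a part that did not. Of 18 genes 4 were higher and 0 lower at an unadjusted p under 0.05, with a median difference of 0.96. Without PPARγ2KO array 2, 2 were higher and the median was 0.23. The count was 7 without PPARγ2KO array 1 or array 3, 2 without WT array 1 and 1 in the fit of only the 6 lean arrays. Of all named genes 5.95, 5.72, 2.74 and 2.95% were higher in these fits. The class II genes of professional antigen-presenting cells were high on PPARγ2KO array 2 alone among the lean arrays. Cd74, the class II invariant chain, read 9.09, 9.39 and 10.01 in WT and 9.72, 12.14 and 9.60 in PPARγ2KO. H2-Ab1 read 8.54, 8.55 and 9.08 in WT and 9.05, 11.57 and 8.69 in PPARγ2KO, and H2-Aa gave a difference of 0.79 with all arrays and -0.18 without that array.

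B2m, the light chain of class I molecules, was higher on every PPARγ2KO array. It read 11.34, 11.06 and 11.51 in WT and 12.24, 13.03 and 12.98 in PPARγ2KO, a difference of 1.45 with an adjusted p of 0.221, and 1.31 without PPARγ2KO array 2. The immunoproteasome subunit Psmb8 read 9.92, 9.94 and 10.88 in WT and 10.65, 11.68 and 11.47 in PPARγ2KO, with overlapping genotypes and a difference of 1.02. The class I heavy chains H2-K1 and H2-D1 gave differences of 0.32 and 0.10, and the peptide transporter Tap1 gave 0.00. Any part of interferon in the values of these class I genes was not tested.

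Lymphocyte genes were high on PPARγ2KO array 2 and near the WT level on the other PPARγ2KO arrays. The median difference of 20 T cell genes was 0.81 with all arrays and 0.06 without PPARγ2KO array 2, and 2 and 0 of them were higher at an unadjusted p under 0.05. That of 16 B cell genes was 1.23 and 0.12, with 1 gene higher in each fit. Without PPARγ2KO array 1 the counts were 5 T cell and 7 B cell genes, beside 5.95% of all named genes higher. Without array 3 they were 2 and 3, beside 5.72%. With the slide as a block they were 0 and 1, beside 4.31%. On WT arrays 10 of the 20 T cell genes and 8 of the 16 B cell genes were well above background nowhere, while 18 and 15 were above it on PPARγ2KO array 2.

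Cd3d, a chain of the T cell receptor complex, read 1.58, 1.04 and 4.66 in WT and 4.07, 8.69 and 3.74 in PPARγ2KO. Cd79b, a chain of the B cell receptor, read 5.29, 4.34 and 5.67 in WT and 4.54, 10.99 and 5.90 in PPARγ2KO. In both, array 2 was the highest of the 6 and the other PPARγ2KO arrays lay within or near the WT values. The summed log2 level of the B cell list was 10.67 to 10.78 on the WT arrays and 10.66, 12.64 and 11.26 on the PPARγ2KO arrays, and that of the T cell list was 9.61 to 9.84 and then 10.17, 11.50 and 9.54. Macrophage genes followed, with a list mean of 6.18, 6.20 and 6.98 in WT and 6.40, 7.79 and 6.47 in PPARγ2KO. Ccl19, a chemokine of lymph node stroma, read 4.54, 4.68 and 6.14 in WT and 5.71, 9.65 and 6.93 in PPARγ2KO. The level on PPARγ2KO array 2 lay within the range of the ob/ob and POKO arrays, at 5.29 to 7.42 for the T cell list and 6.01 to 7.34 for the B cell list.

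**Figure D3:**
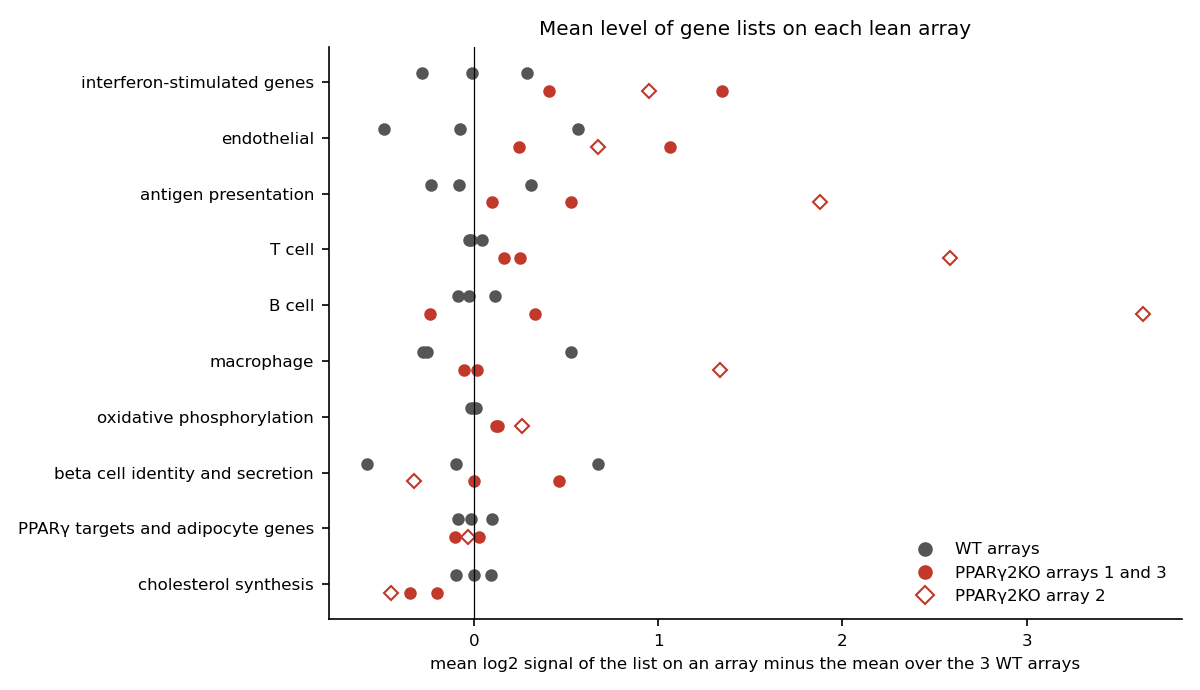
Mean log2 signal of 10 gene lists on each of the 6 lean arrays, minus the mean over the 3 WT arrays. PPARγ2KO array 2, the open diamond, lies 3.63 above WT for B cell genes and 2.58 for T cell genes, while for interferon-stimulated and cholesterol synthesis genes all 3 PPARγ2KO arrays lie on 1 side of the WT arrays.

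**Figure D4:**
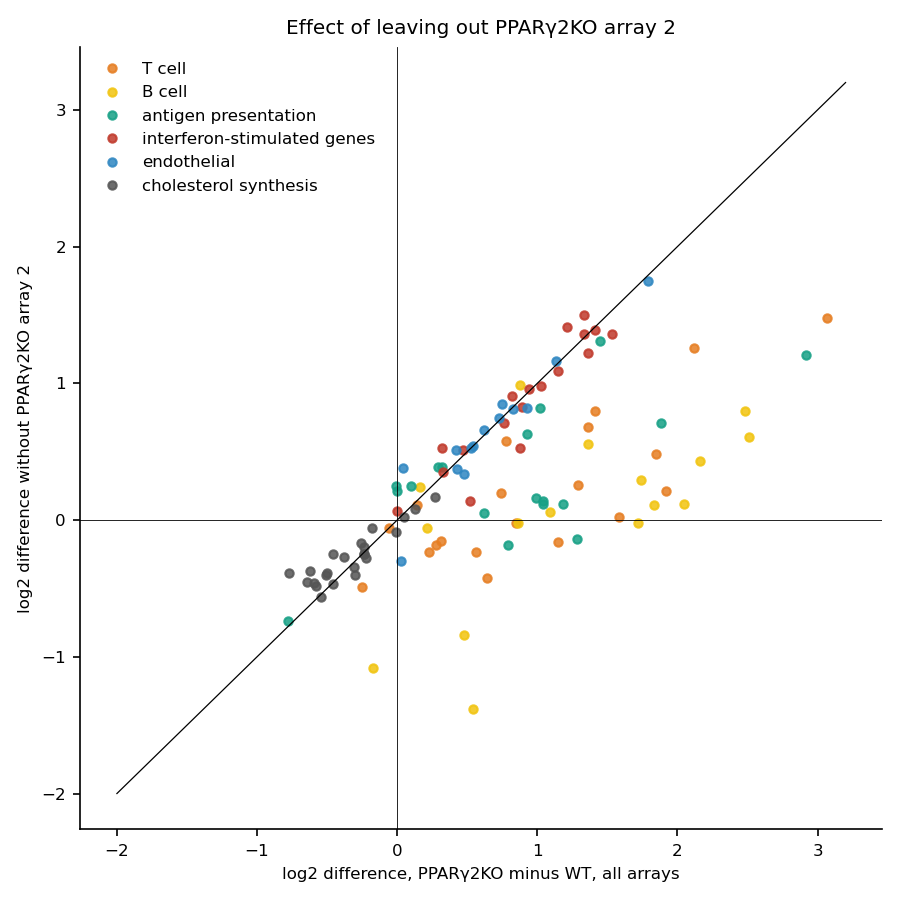
Fitted log2 difference of PPARγ2KO minus WT for the members of 6 lists with all arrays (x) and without PPARγ2KO array 2 (y); the line marks equal values. Most T cell and B cell genes and many antigen presentation genes lie below the line, with list medians near 0 on the y axis for T and B cell genes, and interferon-stimulated genes lie along it, with medians of 0.92 and 0.93.

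Among endothelial genes none was called and all but 1 overlapped between the genotypes. All 14 had a fitted difference above 0, 5 were higher and 0 lower at an unadjusted p under 0.05, and the median was 0.58, or 0.60 with 3 genes higher without PPARγ2KO array 2. Vwf, the von Willebrand factor, read 7.69, 7.56 and 8.40 in WT and 8.92, 9.73 and 10.35 in PPARγ2KO, the only member whose genotypes did not overlap, with a difference of 1.79 and an adjusted p of 0.442. Pecam1 gave a difference of 0.04, Cdh5 of 0.48 and Kdr of 0.43. The count of 5 became 2 without WT array 1, WT array 2 or PPARγ2KO array 3, 10 without WT array 3 and 9 with array weights. Of all named genes 2.74, 2.57, 5.72, 8.51 and 5.32% were higher in these fits, in the same order, against 4.55% with all arrays. The median was 0.30 without WT array 2, the lowest of the 3, and 0.94 without WT array 3. Tagln, a smooth muscle gene, read 9.33, 9.31 and 9.99 in WT and 10.29, 10.39 and 10.32 in PPARγ2KO, a difference of 0.79 with an adjusted p of 0.457. Among 6 smooth muscle genes 1 was higher and 0 lower at the unadjusted limit, 4 were fitted higher and 2 lower, and the median was 0.54.

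In cholesterol synthesis a part of the genes was lower by a small amount and none was called. This pathway makes sterols from acetyl-CoA under control of SREBP-2. Of 23 genes 0 were higher and 9 lower at an unadjusted p under 0.05, and the median difference was -0.31. In 11 of them the genotypes did not overlap with PPARγ2KO lower, against 6.48% of all named genes. Without PPARγ2KO array 2, 4 were lower and the median was -0.28. Hmgcs1, which makes HMG-CoA, read 11.81, 12.27 and 11.92 in WT and 11.60, 11.51 and 11.28 in PPARγ2KO, a difference of -0.54. Fdft1, which makes squalene, had the smallest adjusted p of the list at 0.418, with 10.87, 10.96 and 10.81 in WT and 10.52, 10.01 and 10.33 in PPARγ2KO. Sqle did not follow, with a difference of 0.05. The count was 2 without WT array 2 and 4 without WT array 1, beside 2.54 and 3% of all named genes lower in these fits.

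Between POKO and ob/ob the counts lay in the other direction. There 10 of 23 were higher and 0 lower at an unadjusted p under 0.05, against 6.65% and 5.18% of all named genes, with a median difference of 0.38 beside 0.01 over all named genes. Hmgcs1 averaged 10.82 in ob/ob and 11.51 in POKO, a difference of 0.69, beside -0.54 in lean mice, and the difference between both comparisons had an adjusted p of 0.248. The list was not tested for a difference between the comparisons. The mean log2 level of the list was highest in WT, at 9.86 to 10.05, then 9.51 to 9.76 in PPARγ2KO, 9.39 to 9.70 in POKO and 9.09 to 9.41 in ob/ob, and the ranges of PPARγ2KO and POKO overlap, as do those of POKO and ob/ob.

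In oxidative phosphorylation a part of the genes was higher by a small amount and none was called. Of 39 nuclear genes of the respiratory chain 14 were higher and 0 lower at an unadjusted p under 0.05, with a median difference of 0.17, and 9 were higher with a median of 0.13 without PPARγ2KO array 2. Ndufab1 read 11.62, 11.58 and 11.51 in WT and 11.84, 11.92 and 11.64 in PPARγ2KO. Cox7a2 read 11.14, 10.96 and 11.02 in WT and 11.51, 11.80 and 11.34 in PPARγ2KO, a difference of 0.51 with an adjusted p of 0.378. The list mean was 11.93 to 11.96 on the WT arrays and 12.08, 12.21 and 12.07 on the PPARγ2KO arrays, with no overlap. The count was 7 when arrays were scaled to their 75th percentile, and the median 0.20. It was 8 without WT array 2, 8 in the fit of only the 6 lean arrays and 17 after normexp. Of all named genes 4.33, 2.57, 2.95 and 4.18% were higher in these fits, against 4.55% in the main fit. In fatty acid oxidation 3 of 25 genes were higher, among them Ucp2, an uncoupling protein of the mitochondrial inner membrane, at 9.01, 9.71 and 9.72 in WT and 10.80, 10.63 and 9.84 in PPARγ2KO, with an adjusted p of 0.457.

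The known targets of PPARγ did not move as a list. Of 27 target and adipocyte genes 1 was higher and 1 lower at an unadjusted p under 0.05, a share near that of all genes, and the median difference was 0.01. Leaving out PPARγ2KO array 2 gave 0 higher and 1 lower, with a median of 0. Fabp4, a fatty acid carrier of adipocytes, macrophages and endothelium, read 10.20, 9.85 and 11.18 in WT and 10.62, 10.85 and 11.15 in PPARγ2KO. Adipoq was well above background on none of the 6 arrays and Plin1 on 1 WT array. Cd36, a fatty acid transporter, gave -0.42 with all arrays and -0.90 with an adjusted p of 0.611 without PPARγ2KO array 2. Gpd1, the lower member, read 11.63, 11.44 and 11.61 in WT and 11.41, 11.30 and 11.11 in PPARγ2KO. Lpl, Angptl4, Plin2 and Pnpla2 gave differences of -0.12, 0.27, 0.24 and 0.00.

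Beta cell genes varied more within WT than between genotypes. Of 32 genes of beta cell identity and secretion 1 was higher and 1 lower at an unadjusted p under 0.05, with a median difference of 0.10. The list mean was 9.26, 9.74 and 10.51 on the WT arrays and 9.84, 9.51 and 10.30 on the PPARγ2KO arrays. Without WT array 3, the array with the most beta cell signal, 11 were higher and the median was 0.55, beside 8.51% of all named genes higher. Without WT array 1, 0 were higher and the median was -0.18, and without PPARγ2KO array 3 it was -0.05. Leaving out PPARγ2KO array 2 gave 0 higher and 0 lower, and a median of 0.26, with 25 genes fitted higher and 7 lower. Slc2a2, the glucose transporter, read 7.10, 7.75 and 8.57 in WT and 7.59, 7.28 and 8.25 in PPARγ2KO. Mafa, a beta cell transcription factor and the lower member, read 5.43, 6.26 and 6.87 in WT and 4.10, 2.48 and 6.35 in PPARγ2KO, a difference of -1.87 with overlapping genotypes and an adjusted p of 0.525, and -0.96 without PPARγ2KO array 2. Ins2 lay at the top of the normalized scale on every array, so a difference in it cannot be read.

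Of the remaining lists few members differed. In the cell cycle list 4 of 32 genes were higher and 0 lower at an unadjusted p under 0.05, and 1 was higher and 1 lower without PPARγ2KO array 2. Ccnb1, a mitotic cyclin, read 3.40, 3.67 and 4.15 in WT and 4.89, 4.69 and 4.42 in PPARγ2KO, and Mki67 read 5.75, 5.77 and 6.73 in WT and 6.51, 6.74 and 6.82 in PPARγ2KO. Gast, the gastrin gene, listed with genes of beta cell expansion, read 6.17, 6.79 and 6.28 in WT and 5.74, 5.6 and 5.74 in PPARγ2KO, a difference of -0.72 with an adjusted p of 0.369. In that list of 23 genes 2 were higher and 1 lower at an unadjusted p under 0.05. There 15 were fitted higher and 8 lower, and the median was 0.28. Cftr, the duct chloride channel, read 6.27, 6.52 and 5.93 in WT and 5.21, 5.25 and 5.22 in PPARγ2KO, a difference of -1.02 with an adjusted p of 0.488. Among 12 duct genes 0 were higher and 1 lower at the unadjusted limit, 5 were fitted higher and 7 lower, and the median was -0.03. Arntl, a core clock gene, read 8.13, 7.69 and 8.33 in WT and 7.58, 7.40 and 7.68 in PPARγ2KO, a difference of -0.49. The lists of cholesterol efflux, ER stress and folding, immediate early genes, TGF-β signalling and the Reg family had at most 2 such members each, and their medians lay between -0.04 and 0.16.

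Msln, a gene of mesothelium, had the most negative difference of any list member. It read 9.97, 10.51 and 11.75 in WT and 7.21, 9.39 and 9.39 in PPARγ2KO, a difference of -2.07 with an adjusted p of 0.496, and -2.44 without PPARγ2KO array 2. The gene varied widely within each genotype, and the POKO minus ob/ob difference was -2.48 with an adjusted p of 0.531. The other 4 mesothelial genes were fitted higher with all arrays, and 3 of them were well above background on none of the 6 arrays. The median of the list was 0.34. Leaving out PPARγ2KO array 2 gave 1 member fitted higher and 4 lower, and a median of -0.02. Genes of acinar cells, alpha cells and delta cells had medians of 0.00, 0.16 and 0.26, with overlapping list means in the genotypes. With all arrays, of the 21 cell type lists those of endothelium and T cells had more than 1 member past the unadjusted limit in 1 direction, and without PPARγ2KO array 2 those of endothelium, duct and Schwann cells.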

How the data were processed

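Islet RNA was labelled with 1 dye and hybridised to Whole Mouse Genome 4x44K arrays. The deposited scanner files hold processed intensity values from Agilent Feature Extraction 10.1.1.1, per the file headers, after background subtraction and without normalization between arrays. The deposited table of the authors holds normalized log2 values, which correlated at 1 with those computed here and were used as an alternative. Here 1639 control spots and 919 outlier spots were left out, intensities were quantile-normalized over the 12 arrays and log2-transformed, and spots of 1 probe were averaged, giving 41174 probes, of which 25097 carried a name of 17305 genes in the files. A gene in a list is its brightest probe. limma 3.58.1 in R 4.3.3 was fitted with genotype over all 12 arrays and p-values were adjusted over all probes. The methods also name the array as a block, which cannot be fitted with 1 value per array, so the slide was used in an alternative. All arrays of 1 number lie on 1 slide. Deviations of same-numbered WT and PPARγ2KO arrays correlated at 0.19, 0 and 0.2. The script was tested on simulated data. Named genes were Pparg, the named and bright calls with all arrays and without PPARγ2KO array 2, and the first 3 members of lists with others chosen after their values were seen. Members and lists were chosen with earlier results of these data known. With 3 pools per genotype, the number of arrays limits the precision. For normexp the median spot signal was used. Promoter windows of 300 bases came from RefSeq. Some list members are counted in their lists and their own values are not reported here.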

Additional observations from a re-analysis of the deposited data

How the results depend on the processing

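Of 194 values of single named genes under other settings, 135 kept their direction and side of the limit, 42 kept the direction but lost the call, 17 gained it and 0 reversed. The 40 calls became 15 after 75th percentile scaling, 0 after normexp, 8 when only the 6 WT and PPARγ2KO arrays were fitted, 17 with the replicate block and 15 with array weights, and leaving out 1 array gave 54 to 911. At an adjusted p of 0.05 the count of 0 became 9 with the authors' normalized values and 10 to 124 when 1 array was left out. Of the 8 bright named genes 0 stayed called after normexp, 1 in the fit of 6 arrays, 0 with the replicate block and 2 with array weights, and 3 to 8 when 1 array was left out, the lowest without WT array 2 and the next, 4, without WT array 1. Pparg passed the limit, at -1.79 with an adjusted p of 0.198, when only bright probes were tested, and ranged from -1.96 to -1.54 when 1 array was left out, with adjusted p from 0.123 to 0.533. The cause was not tested. The 75th percentile scaling moved the median of all probes to -0.09. The slide correlations, with 0 for slide 2, do not show that the numbers pair the arrays. Probes not well above background limit the size of most calls.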
